A study of Mus with 12 samples.

Results

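The genes described here are 261 expressed mouse zinc finger genes whose symbol is Zfp followed by a number. They were taken from the 359 such rows of a deposited table of 27294 genes by 1 rule, that their read counts summed to at least 2400 over 12 libraries. Zfp36, an RNA-binding protein of another zinc finger class, was left out. The 98 Zfp genes under the threshold are not described. RNA came from primary peritoneal macrophages, which are macrophages collected from the abdominal cavity of mice, in 4 groups of 3 libraries each. The groups were knockout (KO) cells given oxidised low-density lipoprotein (oxLDL), untreated KO cells, wild-type (WT) cells given oxLDL, and untreated WT cells. The knockout label names no gene, the series title names the kinase WEE1, and the titles of the treated libraries say LDL where the treatment label says oxLDL. Cells called untreated carry no treatment label. The sources used here do not give the deleted exons, strain, age, dose, time, or whether the 3 libraries of a group came from separate mice or cultures. All p-values therefore measure the spread between libraries, which may be technical.

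Most Zfp genes encode C2H2 zinc finger proteins, in which a row of fingers, each folded around a zinc ion, reads DNA base by base. Many also carry a KRAB domain, which recruits the corepressor Trim28 (KAP1) and through it the histone methyltransferase Setdb1, HP1 proteins (Cbx1, Cbx3 and Cbx5) and DNA methylation, and which is best known for silencing retroelements. Others have no KRAB domain and work as ordinary transcription factors, as parts of chromatin complexes, or on RNA and ribosomes. In macrophages few of them have a described role. KRAB zinc finger genes sit in clusters of related copies that arose by duplication.

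The label was checked against the annotation columns of the table. Of the 261 genes, 237 were annotated there as C2H2 transcription factors and 14 had no family entry. The KEGG column placed 128 of them under its herpes simplex virus infection entry, where KEGG files many KRAB zinc finger genes, and did not place 133. That entry is used here as an incomplete marker of the KRAB class, since Zfp445 and Zfp932, both KRAB proteins, are not in it. Positions of 237 genes could be matched by Entrez identifier to RefSeq annotation of GRCm38.p6, and all 237 overlapped, so coordinates are given on GRCm38.

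Depth was even apart from WT replicate 2, which was the shallowest library in both WT groups. Totals per library lay between 53588814 and 76809931 counts. Wee1 stood at 1.25 to 1.60 FPKM in KO with oxLDL, 1.22 to 1.63 in untreated KO, 1.44 to 1.78 in oxLDL-treated WT and 2.80 to 3.25 in WT without it, so the KO libraries overlapped WT with oxLDL, and gene counts cannot show which exons a knockout lacks. FPKM is the fragment count scaled by transcript length and by library size. All 8 macrophage markers examined were detected, with summed levels on the TMM scale (explained below) of 15849 to 16600 CPM (counts scaled to a common library size) in KO with oxLDL, 16344 to 17338 in untreated KO, 28420 to 30237 in oxLDL-treated WT and 29323 to 29584 in WT without it. Lyz2 made up 69.9 to 77.9% of their counts in each group. Taken singly, 6 of the 8 were called higher and 2 (Csf1r and Lyz2) lower with oxLDL in WT, and 7 of the 8 were called lower in KO than in WT both untreated and with oxLDL. The 5 mast cell markers summed to 3.33 to 4.11, 3.05 to 4.03, 8.15 to 9.91 and 11.4 to 13.5 CPM in the same groups, and the 6 T and NK cell markers to at most 0.0636, at most 0.191, 2.10 to 2.78 and 1.97 to 2.61 CPM. None of these markers was at 0 in every library. Mesothelium and fibroblast markers, 6 in all, summed to 34.9 to 61.2 CPM over the 4 groups, and the 2 adipocyte markers in the table reached no more than 0.153 CPM, although the protocol text of the labels speaks of an adipose type. The macrophage, mast cell and T and NK cell sums were lower in KO than in WT, and the part of these markers in the Zfp results was not tested. In bulk RNA, fewer cells of a type and less RNA per cell cannot be told apart.

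The Zfp genes were expressed at low to moderate level. Their summed counts ran from 2454 to 171217, with a median of 9500, and their mean FPKM over 12 libraries from 0.442 to 26.1, with a median of 2.41. Just inside the threshold lay Zfp444, Zfp939 and Zfp433, with 2454, 2567 and 2695 counts, and just outside it Zfp174, Zfp667 and Zfp960, with 2390, 2377 and 2234. A level of 600 counts over the 3 libraries was reached in all 4 groups by 221 genes and missed in at least 1 group by the other 40. Zfp811 and Zfp558 reached it in 1 group only, WT with oxLDL, and so owe their place here to that group.

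The 8 most abundant genes by mean FPKM were Zfp991, Zfp207, Zfp984, Zfp993, Zfp106, Zfp91, Zfp445 and Zfp655. Zfp991 averaged 21.7 ± 1.2 FPKM in KO with oxLDL, 23.0 ± 1.9 in untreated KO, 28.6 ± 1.9 in WT with oxLDL and 31.3 ± 2.2 in untreated WT (SD, n = 3 each). Zfp207 (chr11:80383279-80405733, plus strand), also called BuGZ, a partner of the checkpoint protein Bub3 that helps chromosomes attach to the spindle, averaged 21.3 ± 0.63, 22.4 ± 1.5, 24.8 ± 0.64 and 22.5 ± 0.43 FPKM in those groups. Zfp445, a KRAB protein that maintains genomic imprints, averaged 15.9 ± 0.87, 16.1 ± 1.1, 14.0 ± 0.34 and 18.3 ± 0.67 FPKM. Zfp991, Zfp984 and Zfp993 lie together on chromosome 4 between 146610961 and 147809788, in a cluster of near-identical copies, and the sources used here do not say how reads shared among such copies were counted. Their separate levels are uncertain.

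As a whole the family took a smaller share of the reads in WT with oxLDL than in any other group, while its summed level was nearly flat after TMM scaling. The 261 genes held 0.543 to 0.566% of counts in KO with oxLDL, 0.548 to 0.586% in untreated KO, 0.440 to 0.446% in oxLDL-treated WT and 0.571 to 0.581% in WT without it. TMM, which rescales libraries on the assumption that most genes do not change, gave factors of 1.035 to 1.0365, 1.0285 to 1.0376, 0.832 to 0.843 and 1.10 to 1.125 in these groups. On the TMM scale the summed level was 5247 to 5463, 5327 to 5648, 5246 to 5293 and 5153 to 5192 CPM. The median Zfp gene stood at 10.9 to 11.1 CPM in KO with oxLDL, 11.0 to 11.7 CPM in untreated KO, 8.70 to 9.13 CPM in WT with oxLDL and 10.3 to 11.0 CPM in untreated WT, lowest in WT with oxLDL. All CPM values from here on are on the TMM scale, and changes are edgeR's fitted log2 differences with their standard error (SE).

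The first comparison asked which Zfp genes oxLDL changed in WT macrophages. Of the 261 genes, 38 rose and 110 fell with oxLDL at an adjusted p under 0.05 over all 17291 genes tested, and 113 did not pass. The treated and untreated libraries did not overlap for 43 genes on the higher side and 124 on the lower, against 27.9% and 30.7% of all genes tested. The called share was 56.7% of Zfp genes, against 51.2% of all genes tested and 69.1% of all genes with at least 2400 counts. Rises took 14.6% of Zfp genes and falls 42.1%. Of all genes tested 23.9% rose and 27.2% fell, and of genes with at least 2400 counts 33.5% and 35.6%. The median log2 change was -0.22 over the Zfp genes, -0.06 over all genes tested and -0.04 over genes with at least 2400 counts. Calls of at least 2-fold numbered 29, 9 rises and 20 falls, or 11.1% of Zfp genes, against 20.3% of all genes tested, and the fitted changes ran from -4.01 to 5.17. With library totals in place of TMM, 14 Zfp genes rose and 200 fell, the Zfp median was -0.62 and that of all genes -0.46, so the split between rises and falls depended on the scaling, while the Zfp median lay below that of all genes on both scales.

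**Figure D1:**
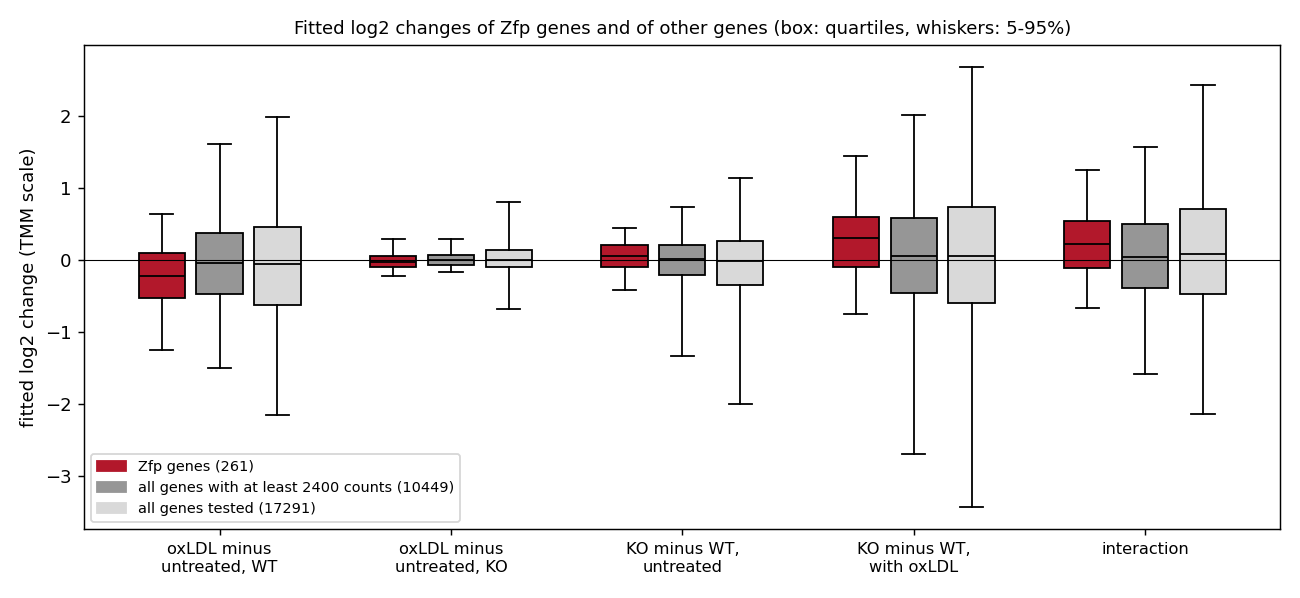
Fitted log2 changes on the TMM scale (y axis) for 5 comparisons (x axis), as boxes from the 25th to the 75th percentile with the median as a line and whiskers from the 5th to the 95th percentile, for the 261 Zfp genes (red), genes with at least 2400 counts (dark grey) and all genes tested (light grey). The Zfp boxes lie lowest for oxLDL in WT, with a median of -0.22, highest for KO against WT with oxLDL, with a median of 0.30, and close to 0 for oxLDL in KO.

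The genes that rose with oxLDL in WT were led by Zfp811, a gene near the detection limit in the other groups. Zfp811 and Zfp558 passed the count rule only through WT with oxLDL, so their high level there was part of their selection. Zfp811 (ENSMUSG00000055202, chr17:32795676-32809931, minus strand) had 2404, 1652 and 2479 counts in WT with oxLDL, against 92, 71 and 79 in untreated WT. As CPM this was 38.2, 36.6 and 39.8 with oxLDL against 1.10, 1.16 and 0.937 untreated. The lowest treated library was far above the highest untreated one, and the fitted change was 5.17 ± 0.29 (SE), or 36.0-fold (edgeR adjusted p = 1.14e-09). Zfp558 (chr9:18455575-18478263, minus strand), whose human relative ZNF558 is a KRAB repressor, had 10.4, 11.2 and 9.62 CPM in WT with oxLDL, against 2.18, 1.63 and 2.09 CPM untreated, a change of 2.40 ± 0.29 (edgeR adjusted p = 6.41e-06). Zfp658 (chr7:43562256-43575461, plus strand) had 30.9, 26.7 and 26.9 CPM with oxLDL, against 7.44, 6.16 and 6.15 CPM untreated, a change of 2.10 ± 0.13 (edgeR adjusted p = 2.95e-09). Its neighbour on the same strand, Zfp719 (chr7:43579610-43593235), had 31.2, 34.4 and 32.4 CPM with oxLDL, against 9.01, 11.8 and 9.23 CPM untreated. Lack of overlap between treated and untreated libraries was a condition for naming these 4 genes, so it is no added support.

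Zfp800, Zfp263 and Zfp281 were the most abundant of the 8 largest risers, at 23.1, 22.8 and 17.3 FPKM in WT with oxLDL. Zfp800 had 138, 135 and 146 CPM in WT with oxLDL, against 44.1, 43.1 and 41.0 CPM untreated, a change of 1.71 ± 0.06 (edgeR adjusted p = 1.23e-11). Zfp263, a SCAN and KRAB domain protein with many genomic binding sites in human cells, had 139, 121 and 127 CPM with oxLDL, against 46.4, 54.9 and 51.5 CPM untreated. Zfp281, a transcription factor of the pluripotency network, had 101, 111 and 109 CPM with oxLDL, against 48.1, 46.0 and 42.9 CPM untreated. These 3 genes each rose more than 2-fold, with changes of 1.71, 1.34 ± 0.07 and 1.23 ± 0.06. Zfp821 closed the list of the 8 largest rises, with 16.8, 18.2 and 17.2 CPM with oxLDL, against 6.14, 7.41 and 7.90 CPM untreated, a change of 1.28 ± 0.13 (edgeR adjusted p = 9.15e-07).

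The genes that fell with oxLDL in WT were led by a related pair. Zfp395 (ENSMUSG00000034522, chr14:65358389-65386436, plus strand), whose human counterpart ZNF395 was described as a papillomavirus promoter-binding factor, had 1.13, 0.863 and 0.835 CPM in WT with oxLDL, against 15.3, 15.5 and 15.1 CPM untreated. The groups were far apart, and the fitted change was -4.01 ± 0.12, a 16.1-fold lower level (edgeR adjusted p = 1.73e-12). Zfp704 (ENSMUSG00000040209, chr3:9427020-9610085, minus strand), whose human counterpart resembles ZNF395 in sequence, had 29.8, 29.9 and 25.5 CPM with oxLDL, against 118, 111 and 114 CPM untreated, a change of -2.01 ± 0.06 or 4.02-fold lower (edgeR adjusted p = 2.46e-12). Both genes were clearly expressed in untreated WT, at 3.43 ± 0.071 and 7.93 ± 0.14 FPKM, and fell to 0.156 ± 0.029 and 1.49 ± 0.14 FPKM with oxLDL (SD, n = 3 each).

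The other 6 of the 8 largest falls were genes of lower level with no role stated here. Zfp41 had 3.47, 3.52 and 3.34 CPM in WT with oxLDL, against 10.0, 10.3 and 11.0 CPM untreated, a change of -1.60 ± 0.09 (edgeR adjusted p = 1.59e-09). Zfp931 had 3.50, 2.68 and 3.56 CPM with oxLDL, against 9.60, 10.7 and 8.09 CPM untreated. Zfp810 had 2.29, 2.66 and 1.73 CPM with oxLDL, against 6.05, 5.78 and 6.65 CPM untreated. Lack of overlap was a condition for naming these genes too, and the changes of Zfp931 and Zfp810 were -1.54 ± 0.14 and -1.47 ± 0.15. Zfp763, Zfp882 and Zfp934 fell by 1.46 ± 0.23, 1.46 ± 0.21 and 1.39 ± 0.16 on the log2 scale, each to between 1.07 and 2.26 CPM with oxLDL. Zfp882 overlaps Zfp617 and Zfp934 overlaps Gm7664, and reads of overlapping genes could not be told apart, because the sources used here do not give the strand setting of the counting. The 16 genes of these lists kept their direction and passed the test in every one of the 21 other fits of this comparison, including each fit without 1 library.

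**Figure D2:**
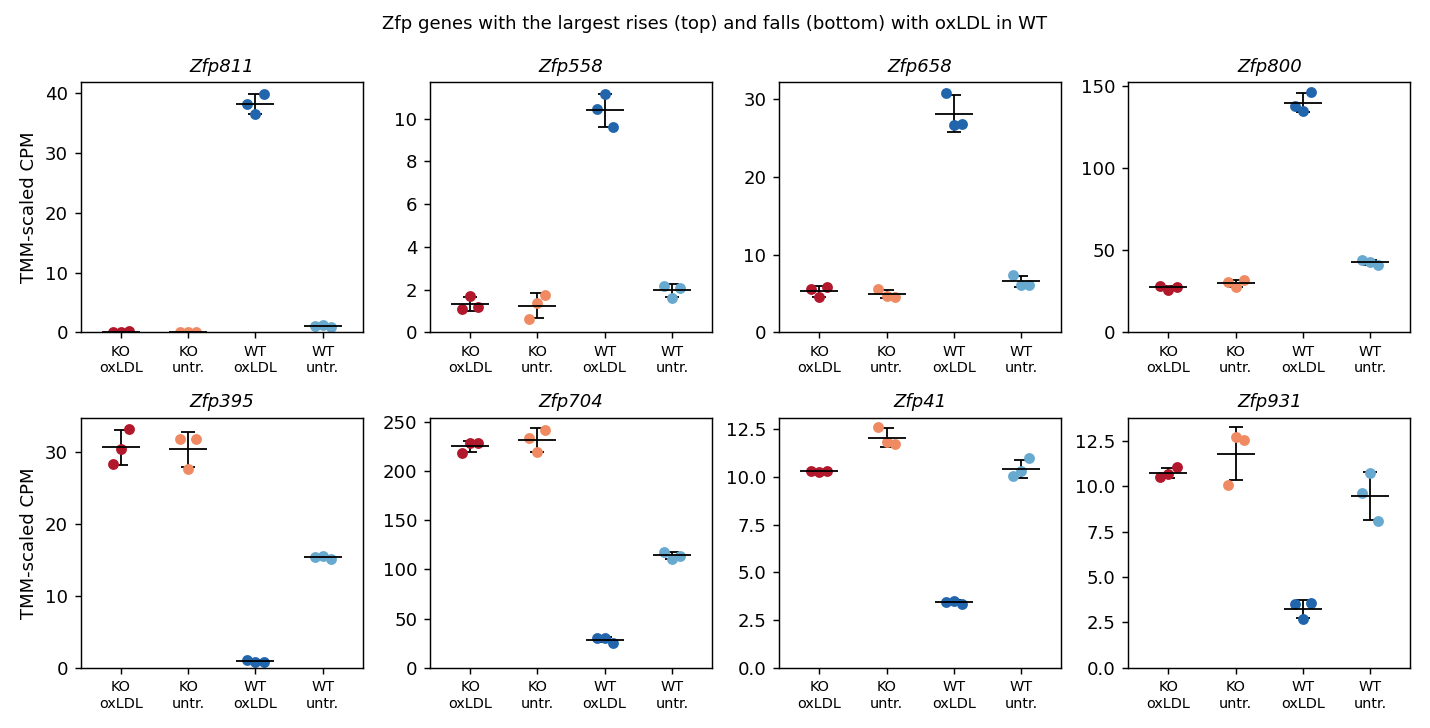
TMM-scaled CPM (y axis) of the 4 Zfp genes with the largest rise (top) and the 4 with the largest fall (bottom) with oxLDL in WT, by group (x axis), with each library as a point and the mean ± SD of 3 libraries as bars. In every panel WT with oxLDL lies apart from the other groups, and KO with oxLDL lies beside untreated KO. Untreated WT lies between WT with oxLDL and KO for Zfp395, Zfp704, Zfp800 and Zfp811, which also differ by genotype without treatment. Zfp811, which passed the count rule only through WT with oxLDL, reaches 36.6 to 39.8 CPM there and at most 0.228 CPM in KO with oxLDL.

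The balance of rises and falls followed the level of the genes. Among the 87 Zfp genes with the highest mean FPKM, from 3.32 upward, 23 rose and 26 fell with oxLDL in WT, with a median change of 0.01. Among the 87 genes of the middle range 8 rose and 40 fell, with a median of -0.27, and among the 87 genes under 1.66 FPKM 7 rose and 44 fell, with a median of -0.41. All genes tested showed the same gradient over these ranges. Of 7327 genes at 3.32 FPKM or more, 40.0% rose and 30.6% fell, of 1934 in the middle range 19.4% rose and 39.6% fell, and of 1520 genes under 1.66 FPKM with at least 2400 counts 15.9% rose and 50.1% fell. Of the Zfp genes, from the top range down, 26.4%, 9.2% and 8.05% rose and 29.9%, 46% and 50.6% fell. Falls thus took a greater share at lower level in Zfp genes as in others, but in each range a smaller share of Zfp genes rose. Whether level accounts for the balance in Zfp genes was not tested.

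**Figure D3:**
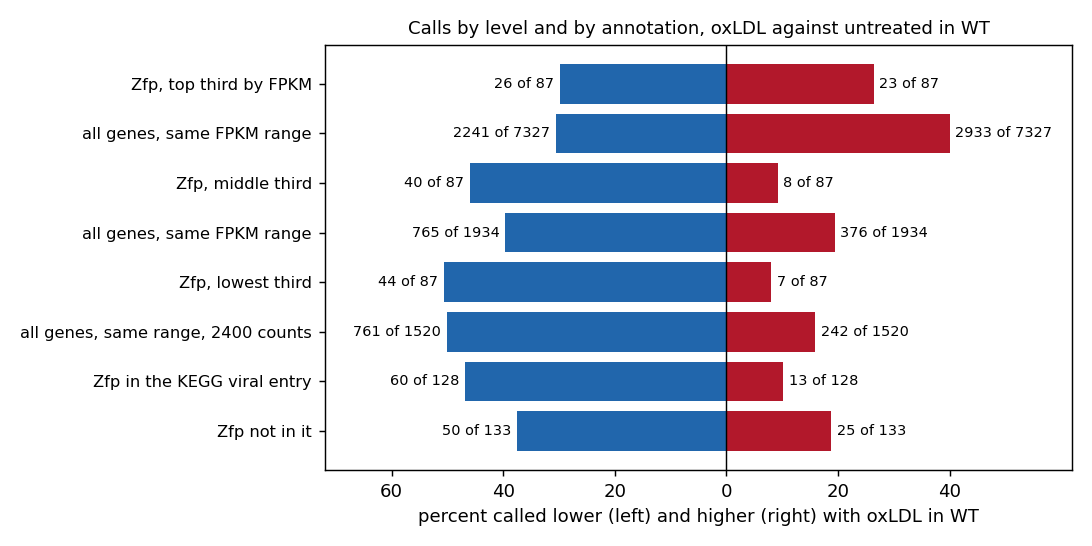
Percent of genes called lower (left, blue) and higher (right, red) with oxLDL against untreated in WT (x axis), for Zfp genes in 3 equal groups by mean FPKM, for all genes in the same FPKM ranges, and for Zfp genes in or outside the KEGG entry (y axis), with counts at the bar ends. Falls outnumber rises by 44 to 7 in the lowest Zfp range and by 26 to 23 in the top range, and the bars of all genes change in the same direction.

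Zfp genes in the KEGG entry had 13 rises and 60 falls among 128, with a median change of -0.29, and those outside it 25 rises and 50 falls among 133, with a median of -0.13. The called shares were 57% and 56.4%, against 51.2% of all genes tested and 69.1% of genes with at least 2400 counts. The difference between these classes was not tested. On the genome, 75 of the genes lay in 6 runs of at least 8 Zfp genes with gaps under 500 kb. The longest, with 21 genes at chr17:21008903-23564238, had 1 rise and 7 falls. The next, 16 genes at chr13:67038596-67827002, had 2 rises and 4 falls. The run of 11 genes at chr17:32765496-33631779 held the strongest riser, Zfp811, beside the strong faller Zfp763, and had 3 rises and 7 falls. The called shares of these runs were 38.1%, 37.5% and 90.9%, and each had calls in both directions. The runs at chr6 from 47835661 and chr7 from 127233061, of 8 genes each, had falls only, 3 and 4. The run of 11 genes at chr7 from 29768552 had 1 rise and 5 falls. Falls took 37.5%, 50% and 45.5% of the genes in these runs, near the 42.1% of all Zfp genes. The genes inside the runs had 7 rises and 30 falls among 75, and those outside 31 rises and 80 falls among 186. Their called shares, 49.3% and 59.7%, lay around or below the background shares given above.

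Zfp genes with described roles are taken next by function, in the same comparison of WT with oxLDL against untreated WT. Among 12 DNA-binding regulators of RNA polymerase II genes, 5 rose, 2 fell and 5 did not pass; 58.3% were called, between the 51.2% of all genes tested and the 69.1% of genes with at least 2400 counts, so that count is near the background. The 5 rises were Zfp281 and Zfp263 (above), Zfp503, a corepressor of the NET family, at 0.99 ± 0.18, Zfp143, which binds promoters and chromatin loop anchors, at 0.63 ± 0.09, and Zfp384, a nuclear matrix-associated factor studied in bone, at 0.39 ± 0.06. Zfp384 had 63.3, 61.3 and 62.1 CPM with oxLDL, against 52.0, 44.3 and 46.0 CPM untreated, but its sign turned to -0.02 with library totals and -0.01 with limma on FPKM. Zfp143 had 28.1, 30.3 and 31.3 CPM with oxLDL, against 19.5, 18.3 and 20.1 CPM untreated. The falls were Zfp704 and Zfp219, a partner of Sox9 in cartilage, which had 7.09, 3.10 and 3.36 CPM with oxLDL, against 8.16, 10.7 and 12.5 CPM untreated, a change of -1.20 ± 0.27 (edgeR adjusted p = 0.00156). Zfp148, Zfp335, Zfp410 (which controls Chd4), Zfp516 (a brown fat factor) and Zfp703 did not pass, at 0.09, 0.23, 0.13, 0.05 and -0.31.

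Among 8 partners of chromatin complexes, 3 rose and 2 fell, 62.5% called and also near the background. Zfp217, which associates with the CoREST complex, rose by 0.42 ± 0.07, Zfp609, a partner of the cohesin loader Nipbl and of Integrator, by 0.43 ± 0.08, and Zfp592 by 0.41 ± 0.07. None of these 3 rises passed with library totals or limma on FPKM, and Zfp592 turned to -0.003 with library totals. Zfp592, Zfp687 and Zfp532 belong to 1 module with the histone reader Zmynd8, and they did not move together: Zfp687 was at 0.16 ± 0.11 without passing, and Zfp532 fell by 0.97 ± 0.14, to 4.72, 5.09 and 3.31 CPM with oxLDL, against 8.35, 7.64 and 9.51 CPM untreated (edgeR adjusted p = 4.13e-05). Zfp608, a relative of Zfp609 that represses the Rag genes in thymocytes, fell by 0.65 ± 0.10. Zfp644, which works with the methyltransferases Ehmt1 and Ehmt2, and Zfp277 did not pass, at -0.13 and -0.09.

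Among 10 genes acting on RNA and ribosomes, 1 rose and 5 fell, 60% called against 51.2% and 69.1% in those backgrounds. The rise was Zfp207, at 201, 212 and 207 CPM in WT with oxLDL, against 140, 141 and 142 CPM untreated, a change of 0.55 ± 0.05 (edgeR adjusted p = 1.77e-07). Zfp706, which restrains self-renewal of embryonic stem cells, fell by 0.82 ± 0.07, to 30.0, 25 and 26.9 CPM, against 48.1, 47.6 and 49.2 CPM untreated (edgeR adjusted p = 1.01e-07). Zfp326, a subunit of the DBIRD complex that couples transcription to splicing, fell by 0.41 ± 0.07, Zfp830 by 0.36 ± 0.09, Zfp318, which B cells need for IgD, by 0.32 ± 0.07, and Zfp106, an RNA-binding protein of neurons and muscle, by 0.25 ± 0.04. Zfp346 (double-stranded RNA binding), Zfp598 (the ubiquitin ligase of collided ribosomes), Zfp622 (maturation of the large ribosomal subunit) and Zfp638 stood at -0.21, 0.16, 0.03 and 0.10 without passing. The ubiquitin and SUMO ligases were nearly flat. Zfp91, a ubiquitin ligase for the NF-κB kinase NIK, had 158, 158 and 170 CPM with oxLDL, against 148, 150 and 148 CPM untreated, a change of 0.12 ± 0.05 (edgeR adjusted p = 0.0451). That call was lost without WT replicate 3 with oxLDL (0.08) and without each other library (0.11 to 0.14) except WT replicate 1 with oxLDL, KO replicate 1 with oxLDL and untreated KO replicate 2, and with library totals the value was -0.29, called lower. The SUMO ligase Zfp451 did not pass, at 0.01.

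Among 5 KRAB proteins known from imprinting and retroelement silencing, 3 fell and 1 rose, a list too short to set against the background. Zfp809, which silences proviruses in embryonic cells, had 9.16, 7.22 and 10.8 CPM in WT with oxLDL, against 16.5, 16.1 and 18.8 CPM untreated, a change of -0.92 ± 0.13 (edgeR adjusted p = 2.49e-05). Zfp932 and Zfp961, which bind retroelements, fell by 0.68 ± 0.10 and 0.74 ± 0.11; Zfp961 overlaps Cyp4f18. Zfp568, which represses the placental transcript of Igf2, had 35.0, 30.1 and 34.1 CPM with oxLDL, against 17.9, 21.2 and 20.7 CPM untreated, a rise of 0.73 ± 0.08 (edgeR adjusted p = 3.52e-06). Zfp445 did not pass, at 0.02 ± 0.05. A list of 8 other genes with described roles, taken as KRAB genes, also holds Zfp263 and Zfp568. The KRAB domain of each was not checked against its protein sequence. Of these 8, 37.5% were called, against 51.2% of all genes tested and 69.1% of genes with at least 2400 counts. Zfp317 fell by 0.46 ± 0.09. Zfp746 (PARIS, a repressor of PGC-1α), Zfp90, Zfp282, Zfp777 and Zfp467 did not pass, at -0.17, -0.19, -0.32, 0.04 and -0.38.

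**Figure D4:**
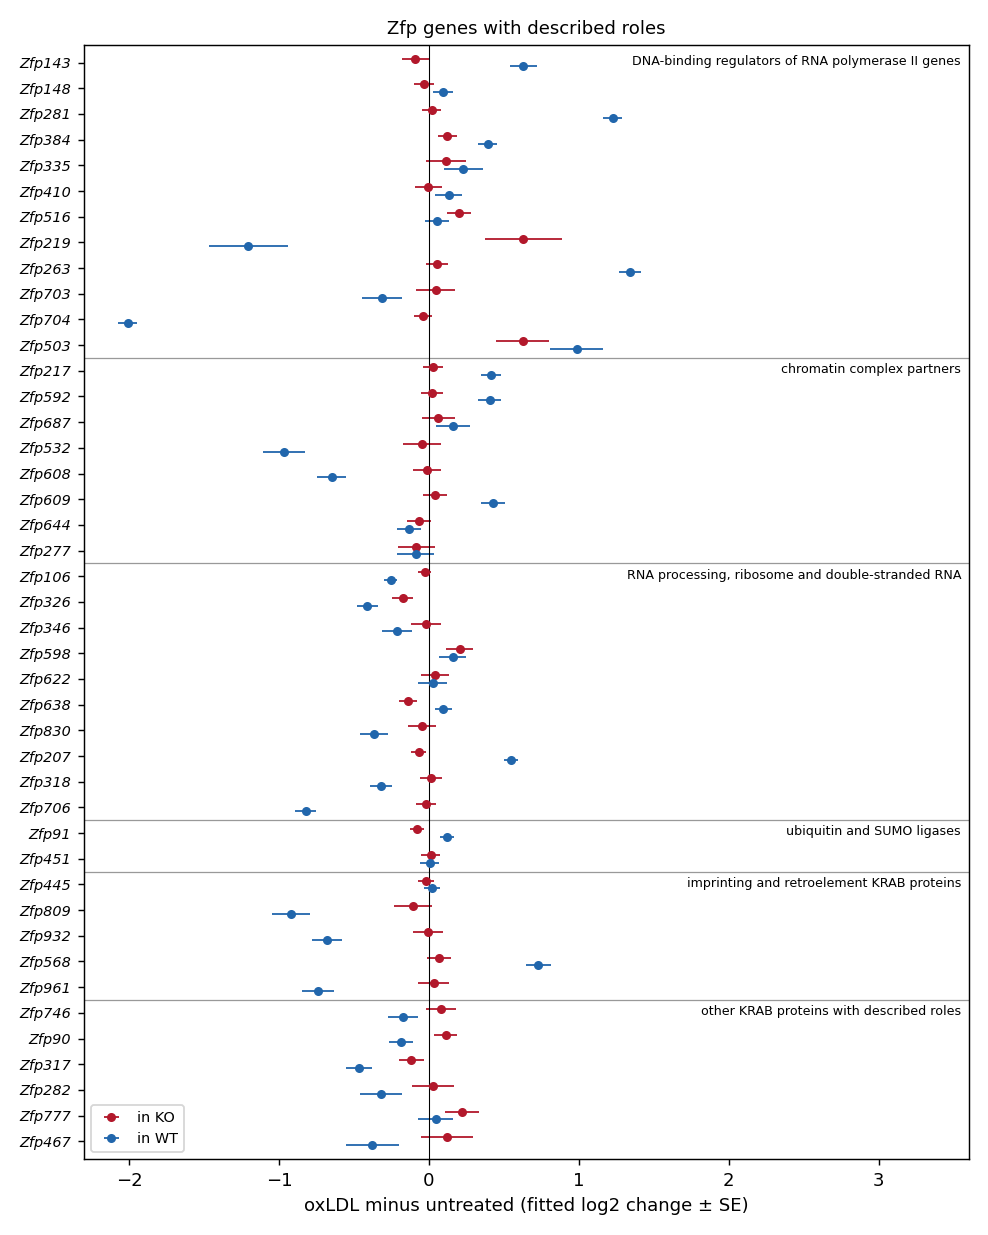
Fitted log2 change with oxLDL ± SE (x axis) of the Zfp genes with described roles (y axis, grouped by list), in KO (red) and in WT (blue). In WT the points spread from -2.01 (Zfp704) to 1.34 (Zfp263), while in KO they lie between -0.17 (Zfp326) and 0.63 (Zfp503, Zfp219) and none passed the test.

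The proteins through which KRAB zinc fingers silence DNA also went both ways with oxLDL in WT. Of 31 tested cofactor and heterochromatin genes, 8 rose, 13 fell and 10 did not pass, with a median change of -0.03. The called share of 67.7% was close to the 69.1% of genes with at least 2400 counts. Trim28 itself was flat, at 0.02 (edgeR adjusted p = 0.777), while Setdb1 fell by 0.52 and the HP1 genes Cbx3 and Cbx5 by 1.05 and 0.84. The maintenance DNA methyltransferase Dnmt1 fell by 1.06, Dnmt3a by 0.88 and the remodeller Chd3 by 1.09. Daxx, a histone chaperone with Atrx, rose by 2.41, Setdb2 by 1.90, Morc3 by 0.85 and Hdac1 by 0.80. The HUSH complex genes Tasor and Pphln1 rose by 0.66 and 0.65, and the third of that complex, Mphosph8, did not pass, at -0.15. Tasor did not pass with limma on FPKM (0.20 with 1 added).

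In KO macrophages no Zfp gene passed the test for oxLDL. Of the 261 genes 0 were called by edgeR, against 2 of 17291 genes tested, or 0.0116% (0 to 57 without 1 library and 61 in a fit of the KO groups alone), and 0.00957% of genes with at least 2400 counts. DESeq2 and limma on FPKM also called 0. At an unadjusted p under 0.05 edgeR gave 23 Zfp genes, 8.81%, against 7.00% of all genes tested and 8.61% of genes with at least 2400 counts. The median change was -0.02, and the fitted changes ran from -0.36 to 1.01. The 3 smallest p-values among positive changes belonged to Zfp574, Zfp503 and Zfp688. Zfp574 had 11.5, 10.9 and 13.3 CPM in KO with oxLDL, against 9.64, 9.09 and 7.32 CPM in untreated KO (0.45 ± 0.13, edgeR adjusted p = 0.348), Zfp503 had 3.03, 3 and 3.18 CPM against 1.79, 2.01 and 2.17 CPM (0.63 ± 0.18, 0.361), and Zfp688 had 4.10, 3.98 and 4.76 CPM against 3.03, 2.75 and 3.30 CPM (0.50 ± 0.16, 0.437). These libraries did not overlap, as was the case for 22 higher and 20 lower Zfp genes, against 7.51% and 5.9% of all genes tested. The smallest p-values among negative changes belonged to Zfp950, which overlaps Grk5, Zfp930 and Zfp41, at -0.24 ± 0.07, -0.36 ± 0.13 and -0.23 ± 0.09.

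Zfp395, Zfp704 and Zfp800, which moved strongly in WT, differed little in KO. Zfp395 had 28.2, 30.4 and 33.1 CPM in KO with oxLDL, against 31.7, 27.5 and 31.7 CPM in untreated KO, a difference of 0.01 ± 0.09. Zfp704 had 218, 228 and 228 CPM in KO with oxLDL, against 234, 219 and 242 CPM in untreated KO, a difference of -0.04 ± 0.06. Zfp800 had 28.4, 26.0 and 27.6 CPM in KO with oxLDL, against 30.6, 27.5 and 31.9 CPM in untreated KO. Both groups of KO libraries overlapped for each of these 3 genes. Zfp811 had 0, 11 and 18 counts in KO with oxLDL, against 6, 3 and 5 in untreated KO, too few to set a change (1.01 ± 0.68, edgeR adjusted p = 0.883). Zfp558 had 1.09, 1.72 and 1.19 CPM in KO with oxLDL, against 0.631, 1.36 and 1.77 CPM in untreated KO. No value in the table shows whether the KO cells received or took up oxLDL, so the treatment itself is unverified there beyond its label, and the oxLDL comparison in KO, the comparison with oxLDL between genotypes and the interaction all rest on that label.

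The next comparison asked how KO differed from WT without treatment. Of the 261 Zfp genes 34 were higher and 21 lower in untreated KO on the TMM scale, 21.1% in all. Of all genes tested 31.0% were called (14.8% higher, 16.2% lower), and of genes with at least 2400 counts 43.1% (21.9% and 21.2%). With library totals the Zfp split turned to 16 higher and 40 lower. The median difference was 0.06 over the Zfp genes and -0.01 over all genes tested, and with library totals -0.05 and -0.12. Without untreated KO replicate 3 only 21 genes were higher. Only 6 of the 55 calls reached 2-fold, 4 higher and 2 lower, or 2.3% of Zfp genes, against 10.1% of all genes tested. The libraries did not overlap for 60 genes on the higher side and 35 on the lower, against 22.0% and 22.9% of all genes tested.

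Zfp532, Zfp469, Zfp82 and Zfp704 had the largest positive differences. Zfp532 had 25.8, 24.4 and 21.9 CPM in untreated KO, against 8.35, 7.64 and 9.51 CPM in untreated WT, a difference of 1.5 ± 0.13 (edgeR adjusted p = 5.38e-07). Zfp469, whose human counterpart ZNF469 is mutated in brittle cornea syndrome, had 23.8, 19.1 and 18.8 CPM in untreated KO, against 9.34, 9.20 and 9.53 CPM in untreated WT (1.14 ± 0.13, edgeR adjusted p = 5.1e-06). Zfp704 and Zfp395 were higher in untreated KO by 1.02 ± 0.06 and 0.99 ± 0.09, with Zfp395 at 31.7, 27.5 and 31.7 CPM in untreated KO, against 15.3, 15.5 and 15.1 CPM in untreated WT. The difference of Zfp82, which overlaps Gm26920, was 1.03 ± 0.32 (edgeR adjusted p = 0.0261), and it no longer passed without untreated WT replicate 1 or 2 or untreated KO replicate 2 or 3, with values of 0.73 to 1.04. Zfp715, Zfp970 and Zfp655 completed the 8, at 0.75 ± 0.06, 0.57 ± 0.14 and 0.52 ± 0.06. Zfp655, whose human counterpart binds the signalling protein Vav, was the most abundant of these, at 18.8 ± 1.3 FPKM in untreated KO and 14.1 ± 0.46 FPKM in untreated WT (SD, n = 3 each).

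Zfp811 and Zfp507 had the largest negative differences. Zfp811 was nearly absent from untreated KO, at 0.0773, 0.0382 and 0.0645 CPM, against 1.10, 1.16 and 0.937 CPM in untreated WT, a difference of -4.10 ± 0.47 (edgeR adjusted p = 6.63e-06). Zfp507 had 5.20, 3.44 and 3.81 CPM in untreated KO, against 8.77, 9.98 and 10.3 CPM in untreated WT (-1.22 ± 0.16, edgeR adjusted p = 3.56e-05). Zfp503, Zfp710, Zfp688, Zfp800, Zfp516 and Zfp39 followed at -0.86 ± 0.18, -0.62 ± 0.09, -0.61 ± 0.16, -0.51 ± 0.06, -0.46 ± 0.08 and -0.45 ± 0.16. Zfp516 had 44.4, 45.7 and 42.6 CPM in untreated KO, against 61.9, 59.2 and 61.8 CPM in untreated WT. The call of Zfp688 was lost without untreated WT replicate 3 (-0.51), and that of Zfp39 without any one of 6 libraries, with values of -0.34 to -0.51. These were untreated WT replicates 1 and 3, oxLDL-treated KO replicate 2 and the 3 untreated KO libraries.

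Among Zfp genes with described roles, 3 of the 10 RNA-related ones were higher in untreated KO and the other 7 did not pass. Their called share was 30%, beside 31.0% of all genes tested and 43.1% of genes with at least 2400 counts. The 3 were Zfp638 (0.38 ± 0.06), which silences unintegrated retroviral DNA with the HUSH complex and overlaps Gm5138, Zfp326 (0.35 ± 0.07) and Zfp706 (0.24 ± 0.07, no longer called with library totals, at 0.13). Of the 12 DNA-binding regulators 41.7% were called, between those backgrounds. Zfp704 was higher, and Zfp503, Zfp516, Zfp281 and Zfp263 were lower, the last 2 at -0.42 ± 0.06 and -0.29 ± 0.07. Zfp281 had 35.5, 33.0 and 33.9 CPM in untreated KO, against 48.1, 46.0 and 42.9 CPM in untreated WT. Of the 8 chromatin partners 50% were called, against the same backgrounds. Zfp217 was lower at -0.30 ± 0.07 and Zfp532, Zfp644 and Zfp592 were higher, Zfp644 at 0.26 ± 0.08 and Zfp592 at 0.22 ± 0.07. The calls of Zfp644 and Zfp592 did not hold with library totals (0.15 and 0.11) or without any one of several libraries: untreated WT replicate 1 or 3 or untreated KO replicate 2 or 3 for Zfp644 (0.16 to 0.26), and untreated WT replicate 1 or 2 or untreated KO replicate 1 or 3 for Zfp592 (0.17 to 0.23). The 5 imprinting and retroelement KRAB genes stood between -0.09 and 0.13 without passing.

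With oxLDL the genotypes stood furthest apart. This comparison shares the WT libraries with the oxLDL comparison in WT and cannot count as separate evidence of it. Of the 261 Zfp genes 129 were higher and 46 lower in KO with oxLDL than in WT with oxLDL, 67% in all, against 57.9% of all genes tested and 74.3% of genes with at least 2400 counts. Higher calls took 49.4% and lower calls 17.6% of Zfp genes. Of all genes tested they took 30.6% and 27.4%, and of genes with at least 2400 counts 39.1% and 35.1%. The median difference was 0.30 over the Zfp genes and 0.05 over all genes, or 0.61 and 0.36 with library totals, under which 185 were higher and 21 lower. Differences of at least 2-fold were called for 42 Zfp genes, 30 higher and 12 lower, or 16.1% of Zfp genes, against 28.5% of all genes tested.

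The 8 largest positive differences belonged to Zfp395, Zfp704, Zfp532, Zfp882, Zfp219, Zfp398, Zfp931 and Zfp692. Zfp395 had 28.2, 30.4 and 33.1 CPM in KO with oxLDL, against 1.13, 0.863 and 0.835 CPM in WT with oxLDL, a difference of 5.01 ± 0.12 or 32.2-fold (edgeR adjusted p = 5.52e-14). Zfp704 had 218, 228 and 228 CPM against 29.8, 29.9 and 25.5 CPM in these groups, a difference of 2.99 ± 0.06 (edgeR adjusted p = 1.43e-14). Zfp532 had 21.7, 23.8 and 24.2 CPM against 4.72, 5.09 and 3.31 CPM (2.42 ± 0.14, edgeR adjusted p = 1.46e-09). For these 3 genes KO also stood above untreated WT, so the distance to WT with oxLDL was larger than the fall in WT alone. Zfp219, at 12.8, 15.6 and 19.7 CPM in KO with oxLDL, against 7.09, 3.10 and 3.36 CPM in WT with oxLDL, differed by 1.82 ± 0.27. Zfp882, Zfp398, Zfp931 and Zfp692, whose human counterpart binds the AICAR response element, differed by 1.90 ± 0.21, 1.76 ± 0.27, 1.72 ± 0.14 and 1.71 ± 0.22. Zfp398 had 16.6, 15.5 and 14.6 CPM in KO with oxLDL, against 5.03, 4.43 and 4.30 CPM in WT with oxLDL, and among untreated WT libraries replicate 1 stood apart at 5.59 CPM beside 14.6 and 14.9 CPM.

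The 8 largest negative differences belonged to Zfp811, Zfp558, Zfp658, Zfp800, Zfp507, Zfp719, Zfp821 and Zfp281. Zfp811 had 0, 0.138 and 0.228 CPM in KO with oxLDL, against 38.2, 36.6 and 39.8 CPM in WT with oxLDL, a fitted difference of -8.27 ± 0.36 (edgeR adjusted p = 4.74e-11). Zfp558, Zfp658 and Zfp800 differed by -2.96 ± 0.30, -2.40 ± 0.13 and -2.35 ± 0.06. The place of Zfp811 and Zfp558 in this ranking partly reflects the count rule, which they passed only through WT with oxLDL. Zfp507 had 4.10, 3.22 and 4.50 CPM in KO with oxLDL, against 14.4, 16.9 and 14.0 CPM in WT with oxLDL (-1.94 ± 0.17, edgeR adjusted p = 1.1e-07). Zfp719, Zfp821 and Zfp281 differed by -1.73 ± 0.11, -1.70 ± 0.13 and -1.63 ± 0.07. Lack of overlap between the libraries of these groups was a condition for naming these 16 genes, so it is no added support. Over all Zfp genes, 138 did not overlap on the higher side and 44 on the lower, against 32.7% and 30.1% of all genes tested.

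By role, 7 of 12 DNA-binding regulators were lower and 3 higher in KO with oxLDL than in WT with oxLDL, the higher ones being Zfp704, Zfp219 and Zfp703 (0.60 ± 0.13). The called share was 83.3%, against 57.9% of all genes tested and 74.3% of genes with at least 2400 counts, and in the other lists below it was 62.5 to 80%. Zfp143 was lower at -0.65 ± 0.09, at 19.5, 19.9 and 17.7 CPM in KO with oxLDL, against 28.1, 30.3 and 31.3 CPM in WT with oxLDL. Zfp384, Zfp516 and Zfp335 (-0.32 ± 0.06, -0.32 ± 0.08 and -0.33 ± 0.13) lost their call with library totals (-0.01 to -0.02). Zfp335, which overlaps Pcif1, also lost it without any library except WT replicates 2 and 3 and KO replicate 3 with oxLDL (-0.20 to -0.32). The RNA list had 6 higher and 1 lower of 10, with Zfp706 at 1.05 ± 0.07 and Zfp207 at -0.52 ± 0.05. The call of Zfp638 (0.14 ± 0.06) did not hold with DESeq2 (0.10) or without any one WT library with oxLDL, KO replicate 2 or 3 with oxLDL, untreated WT replicate 2 or untreated KO replicate 1 (0.12 to 0.15). Of 5 imprinting and retroelement genes 3 were higher, Zfp809 at 0.77 ± 0.13, Zfp932 at 0.80 ± 0.10 and Zfp961 at 0.68 ± 0.11, and Zfp568 was lower at -0.57 ± 0.08. The chromatin partners had 3 higher (Zfp532, Zfp608 at 0.72 ± 0.10 and Zfp644 at 0.32 ± 0.08) and 2 lower (Zfp217 at -0.68 ± 0.07 and Zfp609 at -0.43 ± 0.08, which was not called with library totals, at -0.13).

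Whether oxLDL acted differently on a gene in KO and in WT was tested by the interaction, in which the WT change with oxLDL is subtracted from the KO change. It was called for 108 Zfp genes, or 41.4%, 76 positive (29.1%) and 32 negative (12.3%). Of all genes tested 41.7% were called (22.1% positive, 19.6% negative), and of genes with at least 2400 counts 59.3% (30.3% and 29.1%). The median was 0.23 over the Zfp genes, 0.08 over all genes tested and 0.04 over genes with at least 2400 counts. Values of at least 2-fold were called for 29 genes, or 11.1%, against 18.4% of all genes tested. With library totals 180 were positive and 11 negative, with medians of 0.64 and 0.49. The largest positive values were those of Zfp395 (4.02 ± 0.15, edgeR adjusted p = 5.25e-11), Zfp704 (1.97 ± 0.09) and Zfp219 (1.83 ± 0.37), followed by Zfp882, Zfp810, Zfp652, Zfp931 and Zfp41 at 1.45 to 1.37. Zfp652, whose human counterpart works with the corepressor CBFA2T3 and which overlaps Abi3, had 73.3, 76.6 and 89.6 CPM in KO with oxLDL and 74.2, 70.7 and 73.0 CPM in untreated KO, beside 32.0, 27.4 and 28.8 CPM in WT with oxLDL and 68.4, 74.9 and 73.6 CPM in untreated WT. Its level thus differed in 1 of the 4 groups only, WT with oxLDL. The largest negative values were those of Zfp811 (-4.16 ± 0.89, edgeR adjusted p = 0.00163), Zfp558 (-2.31 ± 0.41), Zfp658 (-1.99 ± 0.18) and Zfp800 (-1.84 ± 0.09), followed by Zfp719, Zfp263, Zfp821 and Zfp281 at -1.43 to -1.21. Zfp811 and Zfp558 entered the set only through WT with oxLDL, and Zfp811 had too few KO counts to set its change there. In Zfp219 the KO value also contributed, at 0.63 ± 0.25 for oxLDL in KO without passing, against -1.20 ± 0.27 in WT.

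**Figure D5:**
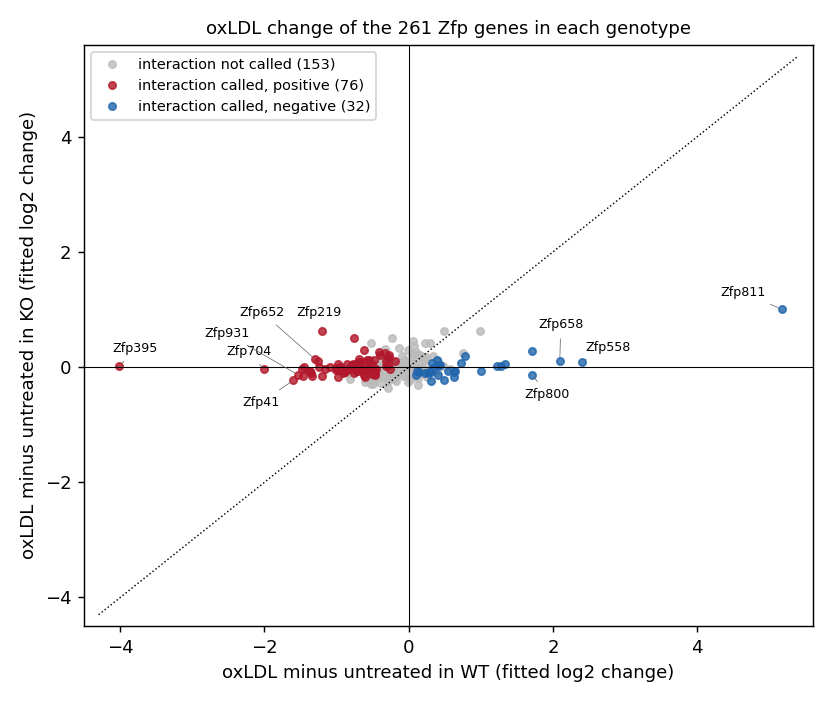
Fitted log2 change with oxLDL in WT (x axis) and in KO (y axis), on equal scales, for the 261 Zfp genes, coloured by the interaction call, with a dotted line where both changes would be equal. The points spread from -4.01 (Zfp395) to 5.17 (Zfp811) along the WT axis and from -0.36 to 1.01 along the KO axis.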

How the data were processed

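Gene expression was measured in 12 libraries by paired-end sequencing of poly(A) RNA, per the labels' protocols. The submitters' processing notes name HISAT2 2.0, Bowtie 0.12.2 and build mm8; the positions in the table fitted GRCm38. The authors deposited raw read counts per gene and, per the file headers, FPKM values scaled by transcript length and library size. The sources used here do not say how reads were counted.

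The whole table was fitted with edgeR 4.0.16 in R 4.3.3: TMM scaling, filterByExpr (17291 genes kept, all 261 Zfp genes among them), 1 quasi-likelihood fit over the 4 groups without a block (common dispersion 0.0279, prior degrees of freedom 5.57), and 5 contrasts. A gene was called where its Benjamini-Hochberg p, adjusted across every tested gene, was below 0.05. The fit was also run on simulated counts in which few genes changed, in both directions, which cannot test the choice of scaling. CPM was computed from counts and TMM-scaled library sizes. Levels were compared between genes only as FPKM, apart from the median CPM of the KEGG classes. Alternatives were other scalings, no filter, DESeq2 1.42.0, limma 3.58.1 on log2(FPKM + 1) and log2(FPKM + 0.1), a replicate block, the contrast's groups alone, each library left out, and count thresholds of 1200 and 4800.

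Genes named are those of the role lists, the 8 largest called rises and falls per contrast without overlap of libraries (for the interaction, called sufficed), the 3 smallest p-values each way where nothing was called, the 8 most abundant, and 3 on each side of the count threshold. The genes, lists and tests were chosen with earlier results of these data known. The grouping by KEGG entry, by level and by runs on the chromosome was chosen after the table was seen. No sequences are shown.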

Additional observations from a re-analysis of the deposited data

Results flagged for a closer look

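The oxLDL effect differed between genotypes, by a test of the difference itself (the edgeR interaction), for 108 Zfp genes. That was 41.4% of them, against 41.7% of all genes tested and 59.3% of genes with at least 2400 counts, so the count is no feature of Zfp genes. Among the named genes the interaction (the WT change subtracted from the KO change) was 4.02 for Zfp395, 1.97 for Zfp704, 1.83 for Zfp219, 1.45 for Zfp882, 1.44 for Zfp810, 1.43 for Zfp652, 1.4 for Zfp931 and 1.37 for Zfp41. It was -4.16 for Zfp811, -2.31 for Zfp558, -1.99 for Zfp658, -1.84 for Zfp800, -1.43 for Zfp719, -1.29 for Zfp263, -1.27 for Zfp821 and -1.21 for Zfp281. Zfp811 and Zfp558 passed the count rule only through WT with oxLDL. Most of each value lay in WT: none of these genes passed the test for oxLDL in KO. Groups of 3 libraries are too small to examine single libraries for extreme values.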

How the results depend on the processing

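The number of Zfp genes called was within 1.5 times the reported one under every alternative for the 3 pairs of groups with calls, and was 0 under every alternative for oxLDL in KO, where edgeR called 2 of all genes. That last count was 97 with DESeq2, 61 in edgeR on the KO groups alone, 57 without WT replicate 1 with oxLDL, 7 without WT replicate 2 with oxLDL, 6 without untreated WT replicate 2, 3 without KO replicate 1 or 2 with oxLDL, 2 without untreated KO replicate 3 and 0 without any other library. The split by direction moved further. For oxLDL in WT, library totals and limma on log2(FPKM + 1) each gave 14 higher and 200 lower, and limma on log2(FPKM + 0.1) gave 14 and 199, against 38 and 110. For KO against WT untreated the same settings gave 16 and 40, 18 and 40, and 16 and 38, against 34 and 21. For KO against WT with oxLDL each gave 21 lower, against 46. For the interaction they gave 191, 181 and 185 calls (180, 170 and 174 positive, 11 negative each), against 108.

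Medians moved with scaling. Under DESeq2 size factors in edgeR, library totals, upper quartile, DESeq2 and the 2 limma fits they were -0.17, -0.62, -0.29, -0.17, -0.39 and -0.59 for oxLDL in WT (-0.26 with a threshold of 1200 counts), 0.26, 0.61, 0.40, 0.26, 0.36 and 0.58 for KO against WT with oxLDL (0.24 with 4800 counts), and 0.18, 0.64, 0.29, 0.18, 0.38 and 0.58 for the interaction (0.17 with 4800 counts). For KO against WT untreated the median was 0.10 with upper quartile scaling and turned negative with library totals (-0.05199) and limma (-0.03526 and -0.04672).

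Without 1 library, calls for oxLDL in WT numbered 130 to 150 (31 to 37 higher, 99 to 113 lower, median -0.25 to -0.22), in KO 0 (median -0.04 to 0.002), for KO against WT untreated 40 to 57 (21 to 34 higher, 16 to 23 lower, median 0.04 to 0.07), with oxLDL 156 to 174 (111 to 129 higher, 38 to 47 lower, median 0.26 to 0.31), and for the interaction 93 to 107 (66 to 78 and 25 to 31, median 0.20 to 0.24). The lowest of 21 came without untreated KO replicate 3.

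Of 3029 values of named genes under alternatives, 2930 kept both call and direction or stayed uncalled, and 90 lost the call. Direction was not compared for values that stayed uncalled. A change of sign in a called gene was found for 9 values, all for oxLDL in WT with library totals, limma with 1 and limma with 0.1 added. These were Zfp384 (-0.01572, -0.01117 and -0.01223), Zfp592 (-0.003073, -0.001875 and -0.00198) and Zfp91 (-0.29, -0.27 and -0.29). The cause was not tested beyond the scaling itself. Across all 22 fits of oxLDL in WT, the same 14 Zfp genes were called higher and the same 86 lower. Library totals and the limma fits gave 14 rises each by themselves, so this split depends on the scaling. The matching share over all genes was not computed.

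Same-numbered libraries did not deviate together (correlations of -0.0449 to 0.031). Such correlations cannot show whether libraries of the same number shared a culture or batch, so pairing remains unknown. A replicate block gave 147, 0, 53, 169 and 104 calls in the 5 comparisons.

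Depth limits Zfp811 and Zfp558 in KO, and near-identical copies and overlapping genes limit the values of the chromosome 4 cluster and of the 23 Zfp genes that overlap another gene holding at least 10% of their counts.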
